A study of Mus musculus with 6 samples.

Results

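The Serpin family was examined in RNA-seq libraries of mouse lacrimal gland epithelium at E14.5, in mid-gestation. Members were all gene symbols in the count tables that begin with Serpin, which gave 63 of the 23420 genes listed. Membership went by name, so no measured value decided which genes were in, although the family was taken up with results of these libraries known and its marker, *Serpina3g*, was known to change. Angiotensinogen (*Agt*), which belongs to clade A by descent, carries another symbol and was not counted.

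The Control group held 3 libraries from Le-Cre embryos, and the Pea3 TKO group held 3 libraries from embryos that were Le-Cre, Pea3-/-, Erm fl/fl and Er81 fl/fl. Both groups therefore carried the Le-Cre transgene, in which Cre recombinase is made in the lens and ocular surface ectoderm, including the conjunctiva and the gland that buds from it. *Pea3* (*Etv4*) was lost in the whole animal, whereas *Erm* (*Etv5*) and *Er81* (*Etv1*) could be lost only where Cre was active. All embryos were of mixed background, the buds were cut out by laser capture, and nothing in the labels ties libraries to separate litters, so the p-values measure the spread between these libraries.

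Total counts ran from 14194775 to 17860140 per library. The targeted genes followed the labels, as *Etv5* lay between 961 and 1202 CPM in Control and between 88.2 and 177 in Pea3 TKO, *Etv4* between 129 and 184 against 10.9 to 28.4, and *Etv1* between 28.7 and 33.9 against 9.21 to 9.98. Levels are given in CPM, the count of a gene scaled to library size with TMM factors, as each library's value or as the mean ± SD of n = 3. The 7 markers of lacrimal bud epithelium, *Epcam* and *Cdh1* among them, summed to between 3157 and 3462 CPM in Control and between 3097 and 3277 in Pea3 TKO, with 2 of them higher and 4 lower. Libraries differed in 3 other ways. Y-linked transcripts gave between 2177 and 3099 counts in the Control libraries and 2366 in Pea3 TKO replicate 3, but 7 and 3 in Pea3 TKO replicates 1 and 2, where *Xist* was high. The summed level of 11 epidermal and stratified epithelial markers was 2040 CPM in Control replicate 1 against 981 and 850 in Control replicates 2 and 3. The summed level of 11 mesenchymal markers was 418 and 584 CPM in Pea3 TKO replicates 1 and 2 but 14.98 in replicate 3, against 21.3 to 137 in Control.

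Serpins are a superfamily of proteins named for inhibiting serine proteases. An inhibitory serpin offers an exposed reactive loop as bait, and when the protease cuts it the serpin changes shape and traps the enzyme. Letters name clades of related sequence: clade A holds mostly secreted plasma-type inhibitors, clade B holds mostly intracellular inhibitors common in epithelia and leukocytes, clade E holds the regulators of plasminogen activators, and some members, such as the collagen chaperone of clade H, have given up inhibition.

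Promoters are shown for the members that were nearly absent from Control and present in Pea3 TKO, those of the clade B cluster on chromosome 1 and the *Serpina3g* neighbourhood on chromosome 12. Each run is the 250 bases upstream of the RefSeq start on GRCm38.p6, read 5′ to 3′ on the gene's own strand. A set of 4 short motifs was searched on both strands: CCGGAA, the core preferred by ETS factors such as the Pea3 family; TTCNNNGAA, the STAT pattern; TGANTCA, the AP-1 pattern; and TATAAA. Capitals mark matches. RefSeq promoters matched 52 of the 63 symbols.

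Upstream of the 3 called genes of the chromosome 1 cluster:
Serpinb5 (chr1:106860925-106861174, plus strand): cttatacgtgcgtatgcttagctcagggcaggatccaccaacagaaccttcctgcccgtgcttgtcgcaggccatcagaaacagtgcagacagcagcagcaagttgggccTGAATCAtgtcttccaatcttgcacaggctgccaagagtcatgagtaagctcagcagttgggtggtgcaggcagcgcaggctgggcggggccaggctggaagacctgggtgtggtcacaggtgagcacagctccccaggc
Serpinb11 (chr1:107362064-107362313, plus strand): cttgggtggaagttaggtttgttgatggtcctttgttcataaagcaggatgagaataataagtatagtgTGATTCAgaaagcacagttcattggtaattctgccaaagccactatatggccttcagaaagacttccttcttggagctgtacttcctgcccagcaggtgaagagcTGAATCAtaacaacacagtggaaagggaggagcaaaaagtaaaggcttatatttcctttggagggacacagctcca
Serpinb8 (chr1:107589756-107590005, plus strand): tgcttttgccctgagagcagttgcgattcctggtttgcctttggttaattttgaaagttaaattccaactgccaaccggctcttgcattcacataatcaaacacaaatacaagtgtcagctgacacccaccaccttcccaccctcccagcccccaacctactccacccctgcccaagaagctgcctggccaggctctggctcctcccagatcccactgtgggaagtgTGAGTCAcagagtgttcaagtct

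The 3 clade B genes of this cluster that were higher in Pea3 TKO each held the AP-1 pattern, which *Serpinb11* carried at 2 places. The RefSeq start of *Serpinb11* lies inside the gene as GENCODE draws it, so its window covers sequence after the GENCODE start. *Serpinb8* held it from base 23 to base 17 before the start. Their untested neighbours *Serpinb2*, *Serpinb7*, *Serpinb10* and *Serpinb12*, which had few counts or none, held it too, so that 7 of the 11 genes of the cluster with a RefSeq promoter contained it, against 6.75% of 32851 promoters of the same length. None of the 14 clade B genes with a promoter in the chromosome 13 cluster held it. TTCNNNGAA occurred in 7.02% of all promoters, TATAAA in 12.4% and CCGGAA in 12.03%.

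Upstream of *Serpina3g* and its tested neighbour in the chromosome 12 cluster:
Serpina3g (chr12:104235897-104236146, plus strand): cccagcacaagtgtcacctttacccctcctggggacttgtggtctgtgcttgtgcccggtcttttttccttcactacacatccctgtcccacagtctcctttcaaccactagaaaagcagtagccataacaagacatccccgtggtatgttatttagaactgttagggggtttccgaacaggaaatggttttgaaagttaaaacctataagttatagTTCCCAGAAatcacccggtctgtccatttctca
Serpina3i (chr12:104262872-104263121, plus strand): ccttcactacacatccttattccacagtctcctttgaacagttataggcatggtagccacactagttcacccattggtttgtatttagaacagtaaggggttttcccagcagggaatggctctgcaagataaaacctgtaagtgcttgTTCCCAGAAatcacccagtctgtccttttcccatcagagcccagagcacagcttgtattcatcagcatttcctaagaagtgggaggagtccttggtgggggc

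*Serpina3g* and *Serpina3i* each held the STAT pattern within their longest shared run, of 17 bases. The pattern was also found upstream of the adjacent *Serpina3f*, which had no count in any library. In all, it lay upstream of 8 of the 52 Serpin genes. The shared run began 34 bases before the RefSeq start of *Serpina3g* and 103 bases before that of *Serpina3i*. For *Serpina3g* the GENCODE start, at 104236245, lies downstream of the RefSeq start, so its distance depends on the annotation. CCGGAA was found upstream of 2 Serpin genes, *Serpinb6a* and *Serpinb9c*, and upstream of none of the members that passed the test between groups. A match describes letters in this window and is not a measured binding site, and no match says nothing about a factor.

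Expression of the family in the control bud was dominated by *Serpine2* and *Serpinh1*. Together they made up between 92.8% and 94.5% of all Serpin CPM in Control libraries and between 78.2% and 84.5% in Pea3 TKO libraries. All Serpin genes summed to 1691, 1862 and 1747 CPM in the Control libraries, in replicate order here and below, and 1205, 1487 and 1367 CPM in the Pea3 TKO libraries. Every Pea3 TKO library was thus below every Control library in this sum. In bulk samples such as these, fewer cells of a type and less RNA per cell cannot be told apart.

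By clade, the sums moved in opposite directions. Clade E fell from 744 ± 18.7 to 291 ± 39.2 CPM, almost wholly through *Serpine2*. The 27 clade B genes summed to 87.5, 69.7 and 70.9 CPM in Control and 212, 170 and 188 CPM in Pea3 TKO. Within clade B, *Serpinb6a* alone made up 88.9% ± 8.80 of the counts in Control and 45.6% ± 3.17 in Pea3 TKO. The 25 clade A genes summed to 2.18 ± 0.71 CPM in Control and 22.0 ± 9.69 CPM in Pea3 TKO, most of it *Serpina3g*. These sums are descriptions, and no test was made on them.

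**Figure D1:**
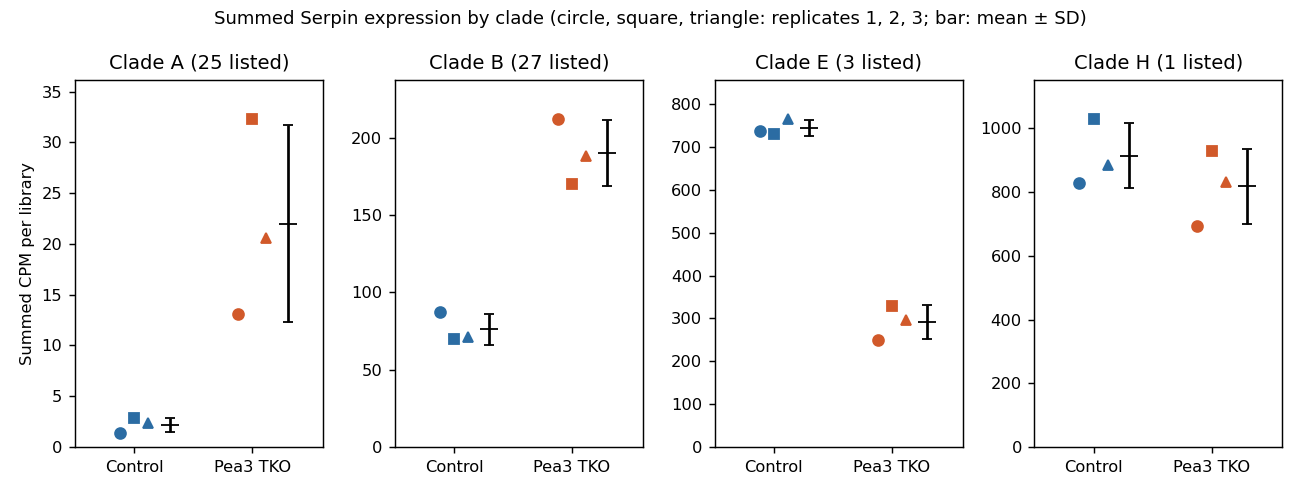
Summed CPM of all listed genes of clades A, B, E and H (vertical axes, each from 0) in each library, by group (horizontal axis), with the mean ± SD of n = 3 beside the points. Clades A and B lie higher in all 3 Pea3 TKO libraries than in any Control library, clade E lies lower in all 3, and the clade H values of the groups overlap.

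Of the 63 Serpin genes, 22 had no count in any library, 27 had some counts but were too low to test, and 14 passed the low-count filter of edgeR. Of these 14, 5 reached the count cutoff in 3 libraries only within Pea3 TKO (*Serpina3g*, *Serpina3i*, *Serpinb5*, *Serpinb8* and *Serpinb11*), so a difference was built into their passing. In the edgeR quasi-likelihood test across all 13087 tested genes, 5 of the 13 tested Serpin genes other than *Serpina3g* were higher in Pea3 TKO at an adjusted p under 0.05, where 13.6% of all tested genes were higher. *Serpina3g* also passed but is left out of these counts, since its value was known when the family was chosen. The one lower member, *Serpine2*, stands beside 11.3% of all tested genes that were lower. The groups did not overlap, with Pea3 TKO higher, for 7 of the 13, against 22.5% of tested genes, and with Pea3 TKO lower for 1, against 21.3%. The median log2 fold change was 1.41 over the 13 and 0.0094 over all tested genes. Since the family was proposed with this contrast known, these counts describe it and support nothing beyond that.

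**Figure D2:**
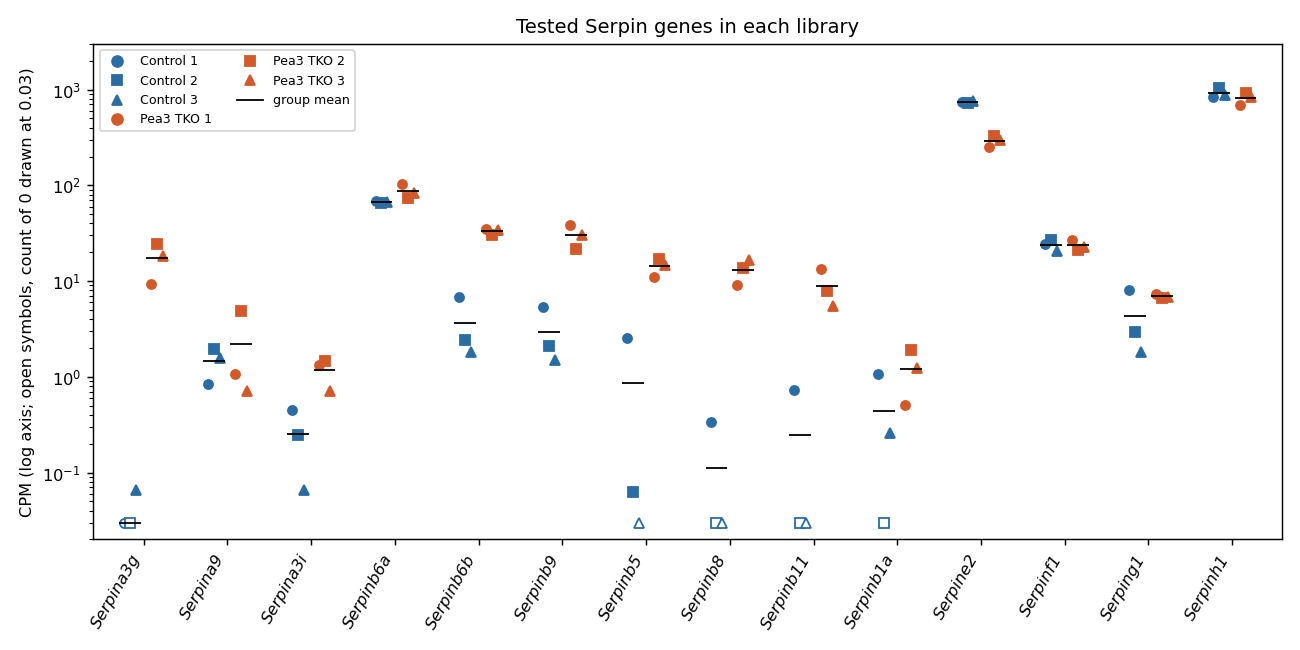
CPM on a log axis (vertical) of the 14 tested Serpin genes (horizontal, by clade) in each of the 6 libraries, with short lines at group means. *Serpina3g* runs from 9.40 to 24.1 CPM in Pea3 TKO with a single count in Control, and *Serpinb5*, *Serpinb8* and *Serpinb11* lie higher in Control replicate 1 than in the other Control libraries. Open symbols, and the Control mean of *Serpina3g*, are drawn at the foot of the axis.

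*Serpine2*, also called protease nexin-1, is a secreted inhibitor of thrombin and the plasminogen activators that acts on heparin-bearing surfaces. It lies on the minus strand of chromosome 1 from 79794197 to 79861180 (GRCm38, GENCODE M21). Its CPM was 738, 729 and 765 in Control, against 249, 328 and 295 in Pea3 TKO. The groups were far apart relative to their spread. The log2 fold change was -1.36 (standard error 0.13), with an edgeR adjusted p of 0.00015, so Control libraries held 2.56-fold more. Leaving out each library in turn gave values from -1.45 to -1.26.

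*Serpine3*, another clade E gene, was scarcely detected, with between 2 and 8 counts in every library. Its exons share 348 bases with *Ints6* on the other strand, and the sources used here do not state whether counting used strand.

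*Serpinh1* (Hsp47) is an endoplasmic reticulum chaperone for procollagen and does not inhibit proteases. It was the highest Serpin gene in every library. It had 830, 1029.5 and 885 CPM in Control and 693, 928 and 832 CPM in Pea3 TKO, and these ranges overlapped. The log2 fold change of -0.16 (standard error 0.14) did not pass the threshold (edgeR adjusted p = 0.44).

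Per kilobase of exon, levels of different genes can be set side by side, but only roughly. The length was that of all annotated GENCODE exons of a gene merged, 2.443 kb for *Serpinh1* and 8.287 kb for *Serpine2*. A gene whose expressed transcript is shorter than its merged exons stands too low on this scale. *Serpinh1* stood at 375 ± 42.1 CPM per kb in Control. *Serpine2* followed with 89.8 ± 2.25. *Serpinb6a* at 12.4 ± 0.35 and *Serpinf1* at 10.2 ± 1.28 came next, and their Control libraries did not overlap. All other members had Control means below 2 CPM per kb, the highest being *Serping1* at 1.84 ± 1.45 and *Serpinb6b* at 1.62 ± 1.19, whose libraries overlapped.

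In Pea3 TKO the order on the same scale was fuller in its middle part. *Serpinh1* was at 335 ± 48.4 CPM per kb and *Serpine2* at 35.1 ± 4.75. *Serpinb6a* at 16.1 ± 2.90 and *Serpinb6b* at 14.6 ± 0.96 overlapped. Further neighbours with overlapping libraries were *Serpinf1* at 10.01 ± 1.32, *Serpinb9* at 8.58 ± 2.38 and *Serpina3g* at 8.23 ± 3.53. *Serpinb5* at 5.21 ± 1.13 overlapped with *Serpina3g* above it and *Serpinb11* at 4.10 ± 1.84 below it. *Serping1* at 2.98 ± 0.17 and *Serpinb8* at 2.75 ± 0.81 overlapped with each other and with *Serpinb11*. The ratio of *Serpinh1* to *Serpine2* per kilobase was 3.82, 4.79 and 3.93 in Control and 9.43, 9.61 and 9.57 in Pea3 TKO. Its size depends on the merged exon lengths, which were the same for both groups.

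**Figure D3:**
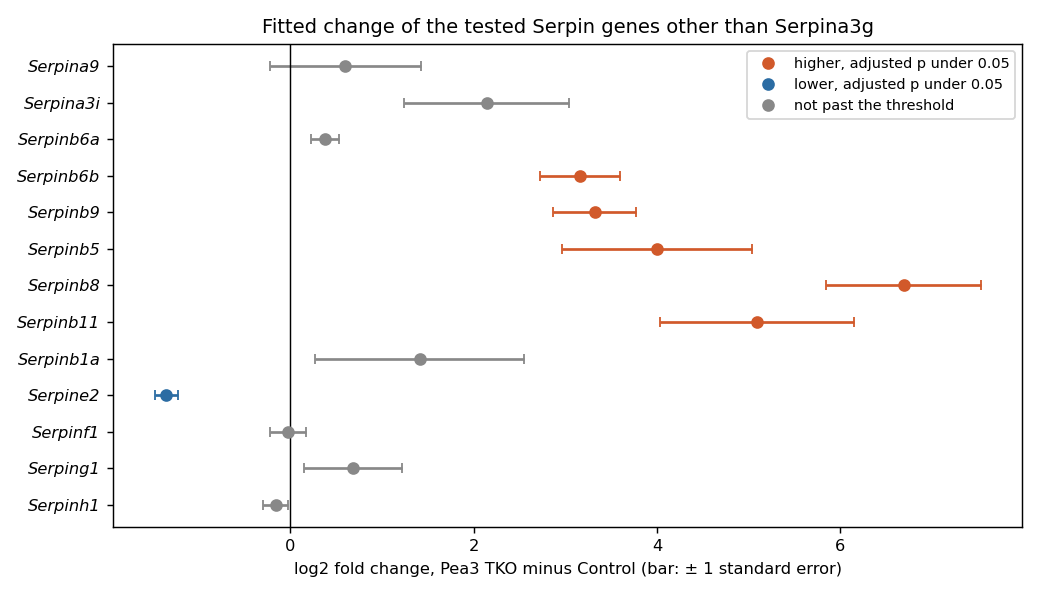
Log2 fold change of Pea3 TKO minus Control (horizontal) with 1 standard error for the 13 tested Serpin genes other than *Serpina3g*, grouped by clade. The 5 called clade B genes lie between 3.16 and 6.69, *Serpine2* lies at -1.36, and the 7 genes in grey did not pass an adjusted p of 0.05.

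In clade B, 5 of the 7 tested genes were higher in Pea3 TKO, beside 13.6% of all tested genes. Every Pea3 TKO library lay above every Control library for 6 of the 7, beside 22.5%. Of the 5 higher genes, *Serpinb5*, *Serpinb8* and *Serpinb11* passed the low-count filter only through Pea3 TKO, so a difference was built into their passing. *Serpinb9* is an intracellular inhibitor of granzyme B, the killer protease of cytotoxic lymphocytes. It lies on the plus strand of chromosome 13 from 33003250 to 33017957. Its CPM was 5.30, 2.12 and 1.496 in Control and 38.2, 21.5 and 30.2 in Pea3 TKO. The fitted log2 fold change was 3.32 (standard error 0.45, edgeR adjusted p = 0.0010), a fold of 9.998, and without Control replicate 1, its highest Control library, it was 4.04.

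*Serpinb6b* lies beside it, from 32965209 to 32979067, and is a relative of the widely expressed *Serpinb6a*. It had 6.76, 2.43 and 1.82 CPM in Control and 34.7, 30.6 and 33.8 in Pea3 TKO. The Pea3 TKO libraries were close together and Control replicate 1 was again the highest of its group. The log2 fold change was 3.16 (standard error 0.44, edgeR adjusted p = 0.0011), or 3.95 without Control replicate 1.

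*Serpinb6a*, an intracellular inhibitor of trypsin-like proteases and of cathepsin G, was already well expressed in the control bud. It had 68.9, 65.1 and 67.0 CPM in Control and 104, 73.8 and 83.2 in Pea3 TKO, without overlap. The difference of 0.38 on the log2 scale (standard error 0.15) missed the threshold with an edgeR adjusted p of 0.092. Of its 100-base windows, 19.9% also occur, on either strand, in transcripts of other genes, mostly *Nqo2*, whose exons overlap on the other strand by 762 bases. *Nqo2* had an edgeR adjusted p of 0.064 and a log2 fold change of 0.83.

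The genes *Serpinb5*, *Serpinb8* and *Serpinb11* share the chromosome 1 cluster and had few counts in Control outside replicate 1. *Serpinb8*, an inhibitor that can block furin-type proteases, had 6, 0 and 0 counts in Control and 142, 197 and 285 in Pea3 TKO. In CPM this was 0.34 in Control replicate 1 and 9.02, 13.8 and 16.7 in Pea3 TKO. Its log2 fold change was 6.69 (standard error 0.84, edgeR adjusted p = 0.00069). Without Control replicate 1 the Control counts were all 0, and the mean of Pea3 TKO was at least 138-fold higher than the floor of 3 counts over the 2 remaining Control libraries.

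*Serpinb5* (maspin) is an epithelial serpin without inhibitory activity against known proteases. It had 45, 1 and 0 counts in Control and 174, 246 and 251 in Pea3 TKO, or 2.54, 0.062 and 0 CPM against 11.05, 17.2 and 14.7. Pea3 TKO lay above Control throughout, but by much less over Control replicate 1 than over the other Control libraries. It differed by 3.998 on the log2 scale (standard error 1.04, edgeR adjusted p = 0.021) and rose to 8.49 without Control replicate 1. This call was not stable, since the adjusted p was 0.056 without Control replicate 2, 0.068 without Pea3 TKO replicate 2, 0.072 in DESeq2 and 0.11 when the summed level of 4 Y-linked genes entered the fit as a covariate.

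*Serpinb11*, an epithelial inhibitor of trypsin-like proteases in the mouse, had 13, 0 and 0 counts in Control and 211, 114 and 94 in Pea3 TKO. In CPM this was 0.73 in Control replicate 1 and 13.4, 7.97 and 5.52 in Pea3 TKO. All Control counts came from replicate 1. This was a log2 fold change of 5.09 (standard error 1.06, edgeR adjusted p = 0.0078), and with the Y-linked covariate the adjusted p was 0.080. Without Control replicate 1 the Pea3 TKO mean was at least 93.9-fold above the same floor.

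*Serpinb1a*, an inhibitor of neutrophil-type elastases, was the remaining tested member of the clade. It had 19, 0 and 4 counts in Control and 8, 27 and 21 in Pea3 TKO, which overlap. Its log2 fold change was 1.41 (standard error 1.14, edgeR adjusted p = 0.40), and it ran from 0.84 without Control replicate 2 to 3.15 without Control replicate 1.

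The epidermal markers are set beside the called clade B genes as a description, since those genes were picked for being higher in Pea3 TKO. The 5 genes that passed summed to 15.7, 4.61 and 3.32 CPM in Control and 106, 91.0 and 101 in Pea3 TKO. The list of 11 epidermal and stratified epithelial markers was at 2040, 981 and 850 CPM in the same Control libraries and at 8150, 7217 and 5938 in Pea3 TKO, with 9 of its 10 tested genes higher. Both sums were thus highest among Control libraries in replicate 1 and higher again in Pea3 TKO. Within Pea3 TKO the clade B sum was lowest in replicate 2 and the marker sum in replicate 3. The part of cells bearing these markers in the Serpin values was not tested. Of the 11 leukocyte markers, 7 were tested and 0 passed. Their sum was 27.9, 0.62 and 22.8 CPM in Control and 26.5, 4.27 and 1.64 in Pea3 TKO, *Cd3e* was at 0 in every library, and *Ptprc* was at means of 0.17 and 0.021 CPM.

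*Serpina3g*, the marker of the family here, is an intracellular inhibitor of cysteine cathepsins from the expanded mouse antichymotrypsin cluster and is known as a gene induced by interferon. It lies on the plus strand of chromosome 12 from 104236245 to 104241939. Its counts were 0, 0 and 1 in Control but 148, 345 and 314 in Pea3 TKO, or 9.40, 24.1 and 18.4 CPM. Every Pea3 TKO library was far above Control, and unlike the chromosome 1 genes it showed no counts in Control replicate 1. The pooled ratio was 843 and rests on that single Control count, so its size is uncertain. No interval is given, since pooled reads are not replicates. The p-value of *Serpina3g* is not given, because the family was chosen with its value known.

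The neighbours of *Serpina3g* did not share its level. *Serpina3h* had 0, 9 and 8 counts in Control and 4, 7 and 8 in Pea3 TKO. *Serpina3f*, on its other side, had none. *Serpina3i* had 8, 4 and 1 counts in Control and 21, 21 and 12 in Pea3 TKO, without overlap. It differed by 2.14 on the log2 scale (standard error 0.90, edgeR adjusted p = 0.11). Paralogs in this cluster are similar enough to trade reads: 3.49% of the 100-base windows of *Serpina3g* also occur in other genes, most often *Serpina3h*, and 2.25% of those of *Serpina3i* occur in others, most often *Serpina3g*. Low counts of neighbours are therefore uncertain, while the level of *Serpina3g* itself exceeded the sum of all other clade A genes in each Pea3 TKO library.

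Among 12 genes of the interferon response, all 12 were tested and all 12 were higher in Pea3 TKO, where 13.6% of all tested genes were higher. Their sum was between 157 and 174 CPM in Control and was 509, 307 and 495 in Pea3 TKO. *Serpina3g* was lowest in Pea3 TKO replicate 1, the library with the highest interferon sum. Whether these values bear on each other was not tested.

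The remaining tested clade A gene, *Serpina9*, first described in germinal centre B cells, was low and did not pass. It had 0.85, 1.93 and 1.56 CPM in Control and 1.08, 4.82 and 0.70 in Pea3 TKO. The log2 fold change of 0.60 (standard error 0.83, edgeR adjusted p = 0.64) turned to -0.69 without Pea3 TKO replicate 2. The genes for alpha-1 antitrypsin, *Serpina1a* to *Serpina1f*, gave at most 5 counts in any library, most of them in Pea3 TKO replicate 1, in which 7 hepatocyte markers also summed highest, to 4.25 CPM against 0.42 to 1.70 in the other libraries.

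Clades F and G each had 1 tested gene, and neither passed. *Serpinf1* (PEDF), a secreted serpin without inhibitory activity that restrains vessel growth, had 24.5, 26.9 and 20.9 CPM in Control and 27.1, 21.1 and 22.6 in Pea3 TKO. Its log2 fold change was -0.028 (standard error 0.20, edgeR adjusted p = 0.94). *Serping1*, the inhibitor of the first complement component, had 8.12, 2.93 and 1.82 CPM in Control and 7.37, 6.64 and 6.75 in Pea3 TKO. The Pea3 TKO libraries were even, and the Control spread came from replicate 1. The log2 fold change of 0.69 (standard error 0.53, edgeR adjusted p = 0.39) became 1.54 with an adjusted p of 0.039 without Control replicate 1.

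The members without a test were near the limit of detection. At most 24 counts were seen for any of them, for *Serpini1* (neuroserpin) in Pea3 TKO replicate 1, which had 0 or 2 in the other libraries. *Serpinb3a* had 7, 21 and 0 counts in Pea3 TKO and *Serpinb2* (PAI-2) had 18 in Pea3 TKO replicate 3, both with none in Control. *Serpinb10* and *Serpinb1b* had their highest counts in Control replicate 1, 15 and 18. *Serpinc1* (antithrombin) had between 1 and 7 counts in every library, and 21 of the 27 had no library over 10 counts. The 22 genes listed at 0 were 10 of clade A, 11 of clade B and *Serpini2*. A count of 0 in a library allows up to 0.17 to 0.21 CPM, the level of 3 counts at these depths, so low expression of these genes was not detectable.

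Most Serpin genes lay in 3 clusters with no other listed gene between their members, and 12 of the 63, *Serpine2* and *Serpinh1* among them, lay elsewhere. The chromosome 1 cluster held 12 clade B genes from 106861173 to 107610484, of which 3 were tested. All 3 passed the low-count filter only through Pea3 TKO, so a difference was built into their being tested. All 3 were higher, where 13.6% of all tested genes were higher. These 3, *Serpinb5*, *Serpinb11* and *Serpinb8*, were not next to each other, since genes at or near 0 lay between them and 5 of the 12 had no count at all. The chromosome 13 cluster held 15 clade B genes from 32842092 to 34002794, of which 4 were tested and the adjacent *Serpinb6b* and *Serpinb9* were higher. In the chromosome 12 cluster, from 103614786 to 104414329, 3 of 24 clade A genes were tested. Of genes flanking the clusters, *Kdsr* was higher, with a log2 fold change of 0.58 (edgeR adjusted p = 0.017). *Vps4b*, between *Kdsr* and *Serpinb5*, had a log2 fold change of 0.36 (edgeR adjusted p = 0.095), and neither *Wrnip1* next to *Serpinb1a*, at -0.26, nor *Dicer1* beyond *Serpina3n*, at -0.025, passed (edgeR adjusted p = 0.16 and 0.91).

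**Figure D4:**
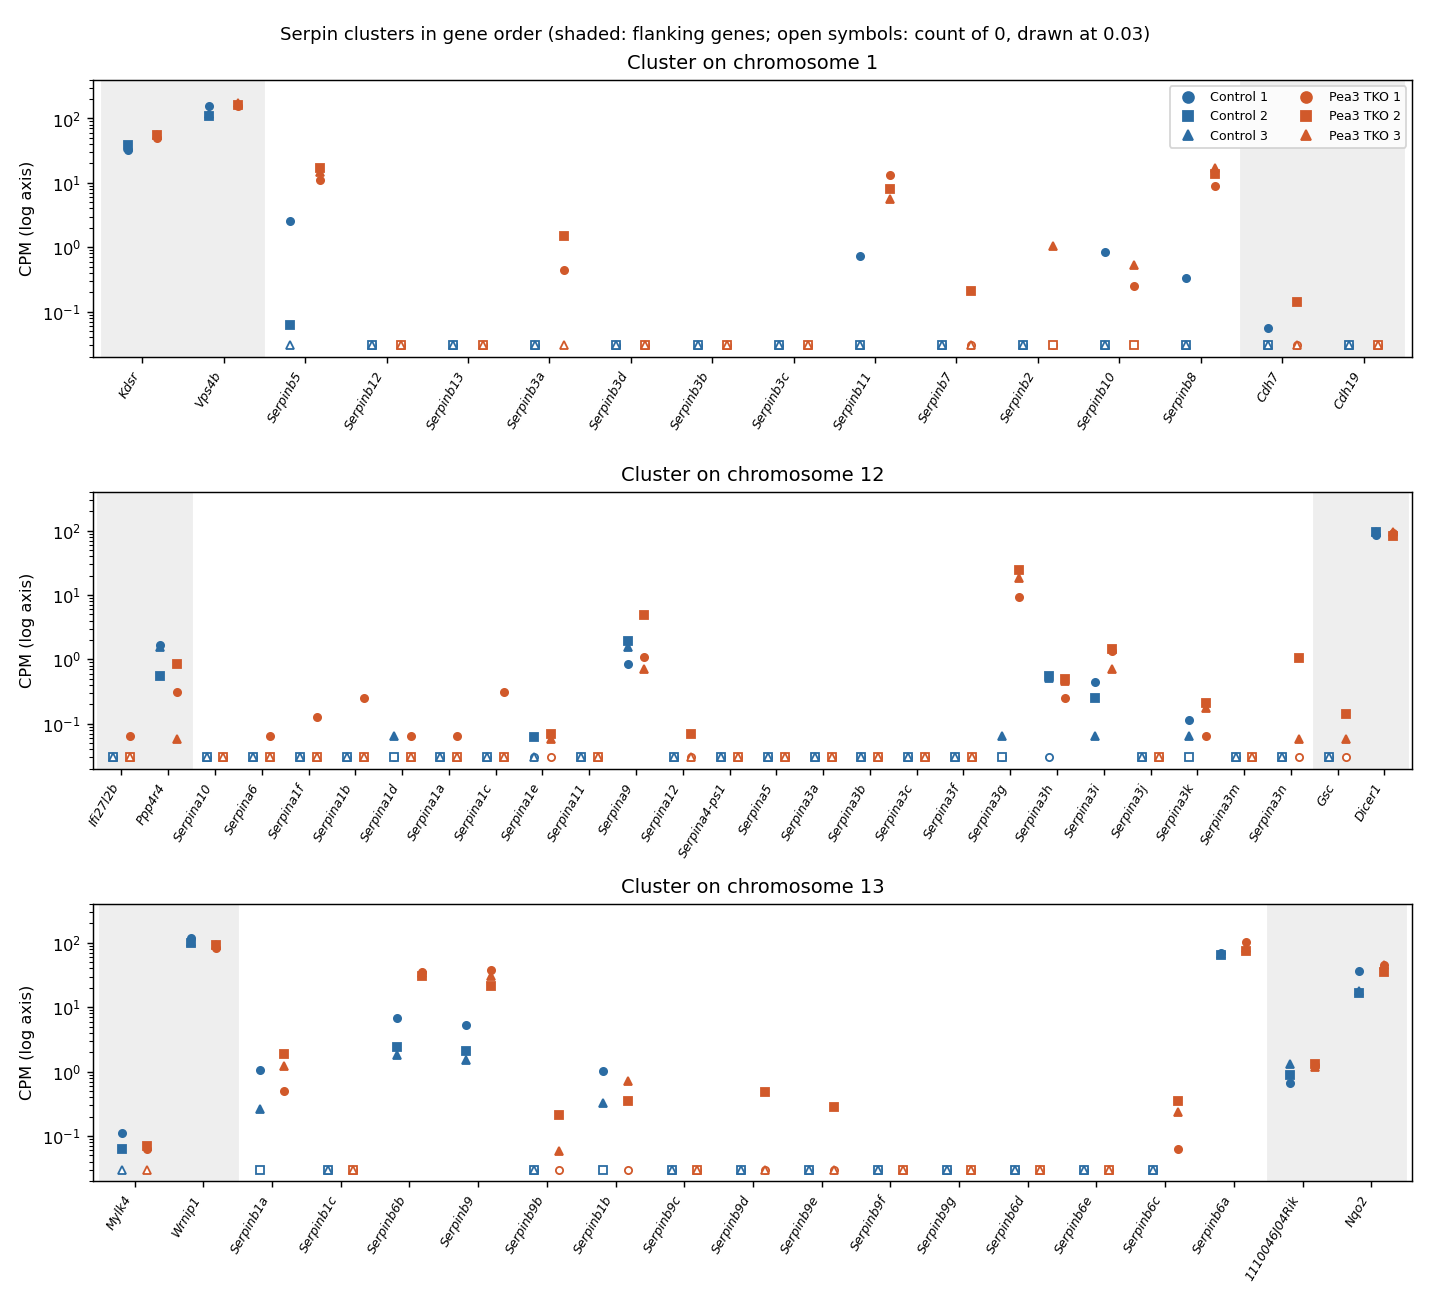
CPM on a log axis (vertical) of every gene of the 3 Serpin clusters and the next 2 genes on each side (shaded), for each library. Genes are in order of start position (horizontal). On chromosome 13 the shaded genes on the right, *1110046J04Rik* and *Nqo2*, lie within the span of *Serpinb6a*. The Serpin genes that passed as higher in Pea3 TKO are *Serpinb5*, *Serpinb11* and *Serpinb8* on chromosome 1, *Serpina3g* on chromosome 12 and the adjacent *Serpinb6b* and *Serpinb9* on chromosome 13. Genes at or near 0 lie between those of chromosome 1.

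Proteases were taken as a list of 43 genes, of which 20 were tested. The list held known targets of serpins and other proteases, so its counts are not counts of serpin targets. In Pea3 TKO, 10 were higher, 1 was lower and 9 did not pass, beside 13.6% of all tested genes that were higher and 11.3% that were lower. The median log2 fold change was 0.94 over the list, against 0.0094 over all tested genes. *Prss23*, a secreted serine protease, rose from 4.93 ± 3.96 to 141 ± 18.7 CPM (edgeR adjusted p = 0.00015). *Htra1*, a secreted serine protease of the matrix, rose from 9.53 ± 4.62 to 87.0 ± 34.3 CPM (edgeR adjusted p = 0.00064). *Plat*, the tissue plasminogen activator and a target of *Serpine2*, rose from 101 ± 15.6 to 238 ± 90.8 CPM, a log2 fold change of 1.24 (standard error 0.24, edgeR adjusted p = 0.0058). Another target, the urokinase *Plau*, was too low to test and had no count in Pea3 TKO.

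Among the cathepsins, *Ctsh* rose from 31.7 ± 25.1 to 198 ± 51.8 CPM (edgeR adjusted p = 0.0035) and *Ctsd* from 386 ± 75.3 to 576 ± 54.4 (edgeR adjusted p = 0.021). *Ctsb*, a target of *Serpina3g*, was at 418 ± 57.5 and 500 ± 14.7 CPM in Control and Pea3 TKO and did not pass (edgeR adjusted p = 0.16). The membrane protease *Prss8* rose from 72.0 ± 17.8 to 138 ± 16.003 CPM (edgeR adjusted p = 0.0053), whereas *St14*, at 320 ± 8.97 and 347 ± 33.9, and *Furin*, at 107 ± 14.46 and 117 ± 10.4, did not pass. The call of *Ctsd* was lost without Control replicate 2 or 3 or Pea3 TKO replicate 1 or 2 (highest edgeR adjusted p = 0.092), and *Ctsb* passed without Control replicate 1 (0.048). The count of 11 called proteases was 6 without Control replicate 2, 7 without Pea3 TKO replicate 1 and 3 with the Y-linked covariate. Calls over all tested genes fell too, from 3268 to 1963, 2267 and 778 in these settings. Without Control replicate 1 the log2 fold changes of *Prss23* and *Ctsh* went from 4.82 to 5.72 and from 2.64 to 3.51.

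The list of 18 receptors and cofactors was mixed. It held genes that clear serpin-protease complexes or hold the proteases at the cell surface, and others, such as *Lrpap1*, *Pnpla2* and *Agt*, that do neither. Of the 18, 16 were tested, 7 were higher and 1 was lower, beside 13.6% and 11.3% of all tested genes. The median log2 fold change of the list was 0.42. The endocytic receptor *Lrp2* (megalin) rose from 4.54 ± 0.65 to 36.7 ± 6.67 CPM (edgeR adjusted p = 6.2e-05), and *Lrp1*, which takes up complexes of *Serpine2*, rose from 47.5 ± 5.47 to 75.6 ± 14.8 (edgeR adjusted p = 0.019). *Anxa2* and *S100a10*, the subunits of a plasminogen-binding complex, rose from 397 ± 242 to 2150.5 ± 390.5 CPM and from 149 ± 14.3 to 370.4 ± 42.7 (edgeR adjusted p = 0.0016 and 0.00021). *Lrp8* fell from 20.8 ± 5.61 to 5.58 ± 1.30 CPM (edgeR adjusted p = 0.0021), and the sorting receptor *Sort1* rose with a log2 fold change of 0.56 (edgeR adjusted p = 0.020). *Lrpap1* and *Sorl1*, with log2 fold changes of 0.054 and -0.20, did not pass. Without Control replicate 2 or 3, or Pea3 TKO replicate 1 or 2, 5 of this list were called in place of 8, and with the Y-linked covariate 3 were. Over all tested genes, between 1948 and 2267 were called without those libraries and 778 with the covariate, in place of 3268. *Lrp1* lost its call without Control replicate 3 or Pea3 TKO replicate 1 (highest edgeR adjusted p = 0.062), and *Sort1* without Control replicate 2 or Pea3 TKO replicate 2 or 3 (highest 0.087). *Anxa2* had a log2 fold change of 2.44, or 3.04 without Control replicate 1.

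Inhibitors of other families were a list of 29, of which 14 were tested, 6 were higher and 1 was lower, beside the same shares of all tested genes (13.6% and 11.3%). The median log2 fold change of the list was 0.63. The cystatins *Cst3* and *Cstb*, inhibitors of cysteine cathepsins, rose from 151 ± 14.2 to 277 ± 4.87 CPM and from 94.8 ± 14.2 to 225 ± 37.0 CPM (edgeR adjusted p = 0.00076 and 0.00077). *Spint1*, a Kunitz inhibitor of *St14* and *Prss8*, rose from 133 ± 32.2 to 316 ± 37.6 CPM (edgeR adjusted p = 0.0011), and its relative *Spint2* from 702 ± 73.8 to 992 ± 176 (edgeR adjusted p = 0.035). *Papln* rose as well (log2 fold change 1.58, edgeR adjusted p = 0.0010). *Wfdc2* fell from 58.0 ± 15.3 to 37.2 ± 3.19 CPM (edgeR adjusted p = 0.038). *App*, *Aplp2* and *Pebp1*, with log2 fold changes of -0.11, -0.018 and 0.34, did not pass. *Spint2* lost its call when any library but Pea3 TKO replicate 3 was left out (highest edgeR adjusted p = 0.14), and *Wfdc2* when Control replicate 2 or any Pea3 TKO library was (highest 0.15). *Pebp1* passed without Control replicate 2 (0.033). The count of 7 was 4 without Pea3 TKO replicate 1 or 2, and 4 with the Y-linked covariate. Calls over all tested genes went from 3268 to 2267, 2072 and 778 in these settings.

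For *Serpinh1*, the list of collagen-folding proteins of the endoplasmic reticulum held 18 genes, all of them tested, of which 0 were higher and 7 were lower, beside 11.3% of all tested genes that were lower. The median log2 fold change of the list was -0.43. *Glt25d1*, a collagen galactosyltransferase, fell from 209 ± 5.38 to 113 ± 19.1 CPM (edgeR adjusted p = 0.0018), *Plod2*, a collagen lysyl hydroxylase, from 64.6 ± 3.34 to 35.9 ± 2.80 (edgeR adjusted p = 0.0023), and *Leprel1*, a prolyl 3-hydroxylase, from 42.0 ± 4.93 to 20.2 ± 4.89 (edgeR adjusted p = 0.0063). *Hspa5*, the general chaperone BiP, fell from 2287 ± 71.5 to 1381 ± 338 CPM (edgeR adjusted p = 0.013). *Crtap* and *Plod3* also fell, by 0.57 and 0.60 on the log2 scale (edgeR adjusted p = 0.022 and 0.027). *P4hb* had a log2 fold change of -0.20 and did not pass (edgeR adjusted p = 0.26), like *Serpinh1* itself. *Crtap* and *Plod3* lost their calls when any library but Control replicate 1 was left out (highest edgeR adjusted p = 0.095 and 0.11). Without Control replicate 2 or 3, or Pea3 TKO replicate 1 or 2, the count of 7 was 4, and with the Y-linked covariate it was 1. Calls over all tested genes, 3268 in the main fit, were between 1948 and 2267 without those libraries and 778 with the covariate.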

How the data were processed

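RNA was amplified with the Ovation RNA-seq V2 kit from laser-captured buds. The authors deposited raw gene counts for each of the 6 libraries; the submitters' processing notes name bcl2fastq 2.17, STAR 2.5.2b, featureCounts 1.5.0-p3, DESeq and mm10. Annotation, strand setting and the handling of multi-mapping reads are not given in the sources used here. Amplification means that counts are not independent molecules, so floors cover counting error only.

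Counts were tested with edgeR 4.0.16 (R 4.3.3; filterByExpr, TMM, quasi-likelihood test on group, Benjamini-Hochberg adjustment over 13087 of 23420 genes, threshold 0.05), and standard errors were the log2 fold change divided by the root of F. The script was checked on simulated data. Alternatives were DESeq2 1.42.0, its size factors, other low-count filters, a replicate block, a Y-linked covariate (*Ddx3y*, *Eif2s3y*, *Kdm5d*, *Uty*) and leaving out each library. Positions and exon lengths came from GENCODE M21 (GRCm38), and promoters from RefSeq. Shared windows of 100 bases were counted between transcripts.

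The members and gene lists were chosen with earlier results of these data known. Full values are given for tested Serpin genes that passed or averaged at least 10 CPM. From each list, up to 6 genes that passed, smallest p first, with a mean of at least 10 CPM, and those that did not pass with a mean of at least 100 CPM, were eligible for naming, and some items are not reported here. Other genes named were chosen after their values were seen.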

Additional observations from a re-analysis of the deposited data

How the results depend on the processing

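The called Serpin genes kept the direction of their log2 fold change under every alternative run, but *Serpinb5* and *Serpinb11* lost their calls under some of them (DESeq2 called 5 higher). With each library left out in turn, 5 to 7 Serpin genes, *Serpina3g* included, passed as higher and 1 to 1 as lower. These fits called between 1948 and 3344 of all tested genes, against 3268 in the main fit. With the Y-linked covariate 4 Serpin genes passed as higher, while that fit called 778 of all tested genes. On leaving out a library, the count of called proteases ranged from 6 to 12 and that of receptors and cofactors from 5 to 7. The count of other inhibitors ranged from 4 to 7 and that of collagen-folding proteins from 4 to 6. With the Y-linked covariate these counts were 3, 3, 4 and 1. The Y-linked level is low in 2 of the 3 Pea3 TKO libraries and in no Control library, and the cause of the lost calls was not tested. Some log2 fold changes that did not pass turned sign. On leaving out a library, *Serpinf1* ranged from -0.14 to 0.055 (0.049 and 0.00031 without Pea3 TKO replicates 2 and 3), *Serpina9* from -0.69 to 1.02, *Aplp2* from -0.066 to 0.043 (0.0061 without Control replicate 3) and *Lrpap1* from -0.046 to 0.23 (-0.0099 without Control replicate 2). With the Y-linked covariate *Serpina9* was at -1.13 and *Lrpap1* at -0.059.

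Deviations of samples with the same replicate number had correlations from -0.042 to 0.13 over 3 pairs, and those with unlike numbers from -0.11 to 0.13. The check thus gave no sign of pairing by number, but so few pairs cannot exclude it. With the replicate block, 6 Serpin genes were higher and 1 lower, and 3191 genes were called in all. The counts of called Serpin genes in this section were taken over all members, with *Serpina3g* among them, whereas the earlier counts of calls left it out.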
